A study of Mus musculus with 6 samples.

Results

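Matrix metalloproteinases (MMP), the related secreted proteases of the ADAMTS family and their tissue inhibitors (TIMP) were followed across 6 cultures of mouse fallopian tube organoids. The members are all genes on the array whose mouse symbol is Mmp, Adamts or Timp with a number, together with Adam8 and Adam12, found by matching each array feature's RefSeq transcript to a symbol. This gave 48 genes of the 23765 that could be named, measured by 79 array features. Of these, 23 encode MMPs, 19 ADAMTS proteases, 4 TIMPs and 2 membrane-bound ADAM proteases.

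Organoids are small epithelial structures grown in gel, here from the oviduct of female mice. RNA of each culture was read on 1 one-colour expression array, so every group is 1 array and no difference between 2 cultures has a replicate check. The control culture came from Trp53flox/flox mice, in which the gene for the tumour suppressor p53 can be deleted, and carried the vector pLKO.1. The Trp53 loss culture had lost that gene. The Pik3ca/Trp53 culture added Pik3caH1047R, an activated PI 3-kinase, to Trp53 loss, and the Apc/Trp53 culture added Apc580D, an altered form of the Wnt pathway inhibitor Apc. Both of these were measured as the culture put under the skin of mice and as organoids grown out of the lesion that followed, labelled adenocarcinoma for Pik3ca/Trp53 and cyst for Apc/Trp53. Those 2 are called tumour-derived here, and "before" and "after" inoculation refer to the source and the tumour-derived culture. The remaining pair that the design names was not analysed here. All cultures were grown in serum-free medium with EGF (50 ng/ml), R-spondin1 (250 ng/ml), Noggin (100 ng/ml), the ROCK inhibitor Y27632 (10 uM), Jagged-1 (1 uM) and CHIR-99021 (2.5 uM), a GSK3 inhibitor that activates Wnt signalling, so Wnt stimulation was present in the control as well. The names given to the arrays add Cre, a recombinase that deletes floxed DNA, for the 5 cultures with Trp53 loss. Not given in the sources used here are the number and age of the mice and how Cre was supplied.

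MMPs are zinc-dependent enzymes that cut collagens, laminins, fibronectin and proteoglycans. They are made as inactive proenzymes whose prodomain must be cut or displaced. ADAMTS proteases mostly cut large proteoglycans and process procollagens and fibrillin-associated proteins, and TIMPs block the active site of most of these enzymes. In tissues, many MMPs come from stromal and immune cells as well as from epithelium, and matrilysin (Mmp7) is a typical epithelial product. A transcript level does not show how much active enzyme was present.

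Many secreted MMP genes lie side by side, and 10 members form one run on chromosome 9 in the order Mmp13, Mmp12, Mmp1b, Mmp3, Mmp1a, Mmp10, Mmp8, Mmp27, Mmp20 and Mmp7. Promoters of this run are shown because Mmp13 and Mmp3, described below, lay far above background in 1 tumour-derived culture and were dim in its source. RefSeq promoter windows (build GRCm38.p6, 250 bases before to 50 after the start) were found for 33 of the 48 genes, in 36 windows. The 130 bases before the start are printed below 5' to 3' on the gene's strand. Capitals mark the letters TGANTCA, the binding motif of AP-1 (Fos and Jun factors), and TATAAA, the TATA box. Adamts1 and Timp3 are shown beside them as members outside the run whose levels were also far apart in that pair.
Mmp13 (chr9:7272384-7272513, plus strand): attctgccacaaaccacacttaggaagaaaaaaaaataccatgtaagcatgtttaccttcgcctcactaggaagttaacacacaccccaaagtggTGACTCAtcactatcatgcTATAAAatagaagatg
Mmp3 (chr9:7445692-7445821, plus strand): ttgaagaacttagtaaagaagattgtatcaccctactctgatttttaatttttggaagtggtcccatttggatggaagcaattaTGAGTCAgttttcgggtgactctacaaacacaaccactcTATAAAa
Mmp10 (chr9:7502212-7502341, plus strand): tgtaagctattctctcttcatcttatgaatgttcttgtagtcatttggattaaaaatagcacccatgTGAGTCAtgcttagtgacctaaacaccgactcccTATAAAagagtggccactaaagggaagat
Mmp7 (chr9:7691960-7692089, plus strand): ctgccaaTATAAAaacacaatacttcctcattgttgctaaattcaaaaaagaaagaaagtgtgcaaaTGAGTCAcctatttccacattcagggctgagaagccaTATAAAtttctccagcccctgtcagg
Adamts1 (chr16:85803114-85803243, minus strand): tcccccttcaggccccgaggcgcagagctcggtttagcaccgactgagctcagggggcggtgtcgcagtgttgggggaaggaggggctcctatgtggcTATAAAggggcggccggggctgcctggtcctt
Timp3 (chr10:86300282-86300411, plus strand): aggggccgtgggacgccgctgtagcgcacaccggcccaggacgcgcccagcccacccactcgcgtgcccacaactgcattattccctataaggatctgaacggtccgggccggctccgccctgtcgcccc

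Both motifs were searched on both strands of each window of 300 bases, and no printed match of one overlaps a match of the other. TGANTCA was found in 7.81% of 32851 mouse promoter windows and TATAAA in 13.6%. In the chromosome 9 run, 8 of 10 genes held TGANTCA and 9 of 10 held TATAAA. Among the 23 other members with a window, 0 held TGANTCA and 2 held TATAAA. Counted from the start, TGANTCA began at -35 in Mmp13, -46 in Mmp3 and -63 in both Mmp10 and Mmp7. TATAAA began at -29 in Mmp10, -28 in Mmp1a and -26 in Mmp7, which held another at -123. It began at -16 in Mmp13, -7 in Mmp3, 4 in Mmp12, -49 in Mmp1b and -58 in Mmp20. In Mmp8 the match, at -3, was on the other strand. The counts of TATAAA are thus counts of letters and not of working TATA boxes. Timp3 held neither motif in its window, and Adamts1 held TATAAA at -32. A match is a description of these letters and not a measured binding site.

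Levels below are log2 of the background-subtracted signal minus the array's 75th percentile, averaged over those probes of a gene that the scanner flagged well above background at least once in the 6 arrays. They rank cultures for 1 gene and do not rank genes. A signal that the scanner software did not flag as well above background is called dim. The lowest signal well above background lay between -4.30 and -3.63 on this scale. Where a dim signal enters a difference it was raised to that limit on its array, and the fold is then given as "at least". A gene is counted as apart between 2 arrays where the difference was at least 1 on the log2 scale, which is 2-fold, in genes above background on one or both of them.

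Of the 48 members, 29 were well above background on at least 1 array, 15 of them on all 6 and 14 on some. By family this was 14 of 23 MMPs, 10 of 19 ADAMTS genes, 3 of 4 TIMPs and both ADAM genes. The other 19 were dim throughout. They were Mmp1a, Mmp1b, Mmp9, Mmp12, Mmp16, Mmp20, Mmp21, Mmp24, Mmp27, Adamts2, Adamts3, Adamts5, Adamts6, Adamts12, Adamts13, Adamts18, Adamts19, Adamts20 and Timp4. Mmp9 encodes gelatinase B and Mmp12 macrophage elastase, both products of myeloid cells. Adamts2 and Adamts3 encode procollagen N-propeptidases. The count of members above background was 22 in control and 20 with Trp53 loss alone, 18 before and 23 after inoculation in the Pik3ca/Trp53 pair, and 19 before and 22 after it in the Apc/Trp53 pair. Over all named genes, 56.7% (Pik3ca/Trp53) to 60.4% (tumour-derived Apc/Trp53) were above background.

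**Figure D1:**
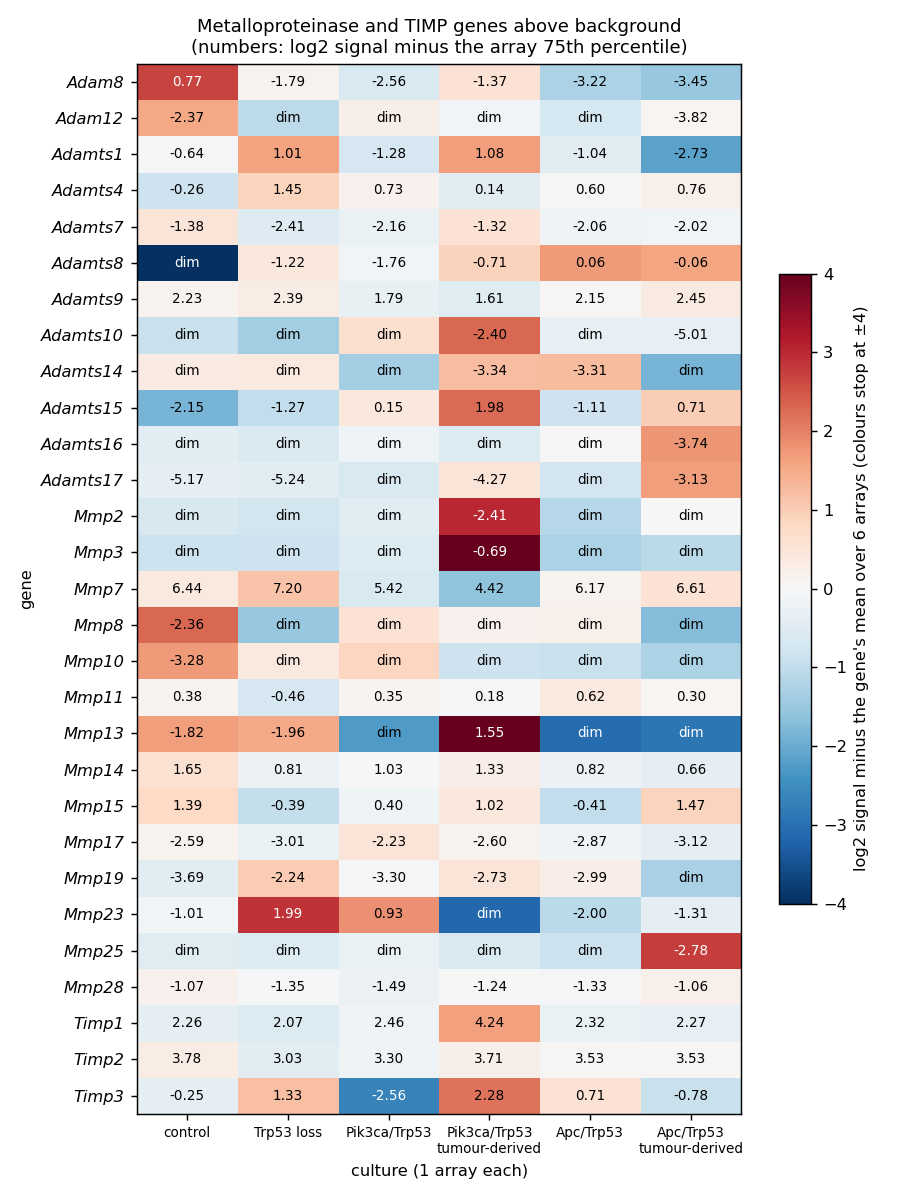
Levels of the 29 members above background on at least 1 array (rows) in the 6 cultures (columns, 1 array each). Numbers are log2 signal minus the array 75th percentile, "dim" marks signals not well above background, and colour is the difference from the gene's mean over the 6 arrays, with colours stopping at 4 log2 units. Mmp3 and Mmp2 are above background only in the tumour-derived Pik3ca/Trp53 culture, and Mmp13 is highest there (1.55).

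The whole series bears on these values as follows. The Trp53 signal, from 1 probe whose place relative to the deleted part is not given, was 1.46 in control. It was dim in Trp53 loss, Pik3ca/Trp53 and tumour-derived Apc/Trp53, and above background in tumour-derived Pik3ca/Trp53 (-1.04) and in Apc/Trp53 before inoculation (-2.99). All 9 epithelial markers listed (Epcam, Cdh1, keratins and claudins) were above background on all 6 arrays. Of the 9, Krt7 and Krt8 were at least 2-fold apart in a comparison and the others were not. Markers of oviduct cell types are given further down. All arrays lay on 1 slide and 1 scan. Control and both tumour-derived arrays lay in slide row 2 and the others in row 1, so row cannot be told apart from the contrast of Trp53 loss with control or from either tumour-derived contrast. Control and Trp53 loss lay in slide column 4, the Pik3ca/Trp53 pair in column 2 and the Apc/Trp53 pair in column 1. Column therefore cannot be told apart from the contrast of either double mutant with Trp53 loss. The median SD among copies of a probe on 1 array was 0.0394 to 0.0990 on the log2 scale, highest on the Pik3ca/Trp53 array, which describes spotting and not cultures.

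The first comparison asks what differed with loss of Trp53 alone. Of 23 members above background in one or both cultures, 6 were at least 2-fold above control in Trp53 loss (26.1%, against 4.24% of all genes) and 5 at least 2-fold lower (21.7%, against 5.57%). The membrane-anchored Mmp23, the proteoglycanases Adamts8, Adamts4 and Adamts1, the inhibitor Timp3 and Mmp19 were higher. Adam8, Adam12, Mmp15, Mmp8 and Adamts7 were lower. The median difference was -0.19 in the members and 0.06 in all genes. Under scaling by the array median, all genes shifted by 0.16, and 825 genes were then higher and 604 lower, against 609 and 800 as reported.

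The next comparisons set each double mutant before inoculation against Trp53 loss, and share that array. In Pik3ca/Trp53, 1 of 20 members was at least 2-fold higher (5%, against 7.75% of all genes) and 6 were lower (30%, against 5.92%). Adamts15 was the higher member, and Timp3, Adamts1, Mmp7, Mmp13, Mmp23 and Mmp19 were lower. In Apc/Trp53, 2 of 21 were higher (9.52%, against 3.4%), Adamts8 and Mmp11, and 4 were lower (19.0%, against 4.32%), Mmp23, Mmp13, Adamts1 and Mmp7. The median difference of the members was -0.12 in Pik3ca/Trp53 and -0.02 in Apc/Trp53, against 0.02 and -0.01 for all genes.

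The remaining comparisons ask how organoids from the lesions differed from the cultures inoculated. In the Pik3ca/Trp53 pair, 9 of 24 members were at least 2-fold higher in the tumour-derived culture (37.5%, against 11% of all genes). These were the collagenase Mmp13, the stromelysin Mmp3, the gelatinase Mmp2, the inhibitors Timp3 and Timp1, and Adamts1, Adamts15, Adamts10 and Adamts8. Only Mmp23 was lower (1 of 24, 4.17%, against 9.1%). The median member difference was 0.51, against -0.08 for all genes. With genes above background on both arrays alone, 5 members were apart in place of 10, with 5 higher and 0 lower. Of all 12983 genes kept by that filter, 1072 were higher and 1031 lower.

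In the Apc/Trp53 pair, 4 of 24 members were higher in the tumour-derived culture (16.7%, against 9.1%) and 3 lower (12.5%, against 6.42%). Adamts17, Mmp15, Adamts15 and Mmp25 were higher, and Adamts1, Timp3 and Mmp19 lower. The median member difference was 0.10, against -0.04 for all genes. Median scaling shifted all genes by -0.32 in this pair and gave 909 genes higher and 1805 lower, against 1353 and 955 as reported. Set side by side, 1 member was apart in the same direction in both pairs (Adamts15), 2 in opposite directions (Adamts1 and Timp3), 7 in the Pik3ca/Trp53 pair alone and 4 in the Apc/Trp53 pair alone. As shares of the 14 members apart in a pair these are 7.14%, 14.3%, 50% and 28.6%, beside 7.67%, 11.5%, 47.8% and 33.1% of the 4418 genes apart in a pair. Of the 41 member differences of at least 2-fold over the 5 comparisons, 0 reversed under any scaling tried.

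Another background correction (normexp with an offset of 50, which lifts low signals) moved 19 of the 41 differences by over 1.5 times, and 16 of the 41 were then under 2-fold. In Trp53 loss against control these were Adam12, Adamts7, Mmp8 and Mmp19. Against Trp53 loss they were Mmp13, Mmp19 and Mmp23 in Pik3ca/Trp53, and Adamts8 and Mmp11 in Apc/Trp53. In the Pik3ca/Trp53 pair they were Adamts8, Adamts10 and Mmp2, and in the Apc/Trp53 pair Adamts1, Adamts17, Mmp19 and Mmp25. The folds given as "at least" below are bounds at the background limit described above and not under normexp.

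**Figure D2:**
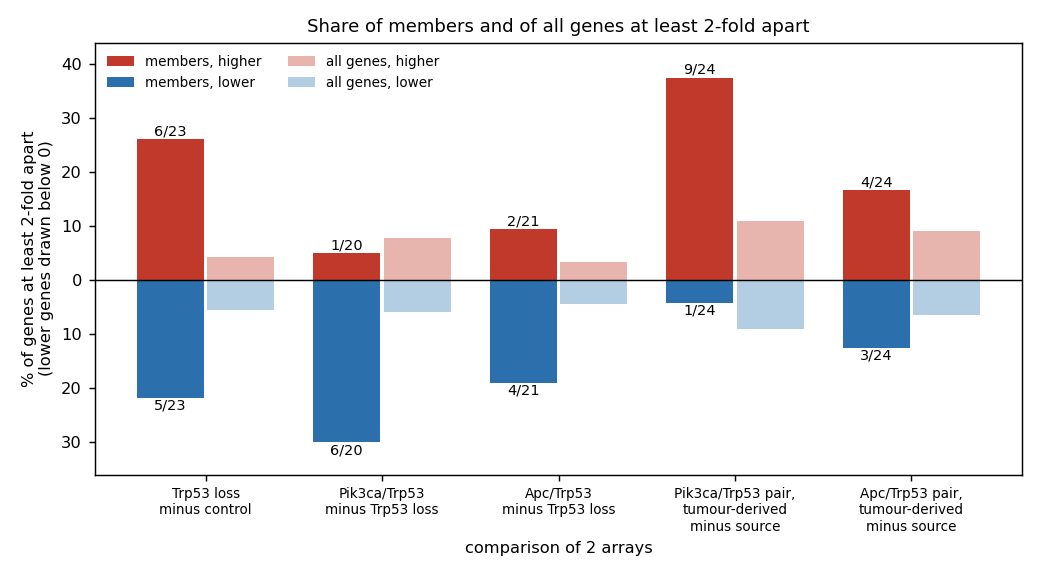
Share of members (dark bars, with counts of those tested) and of all genes (pale bars) at least 2-fold apart in each comparison of 2 arrays, in percent, with higher genes drawn above 0 and lower genes below. The members' share is above that of all genes on both sides of 0 in 3 comparisons, and 9 of 24 members are higher in the Pik3ca/Trp53 pair.

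Among the secreted MMPs, Mmp13 encodes a collagenase that cuts fibrillar collagens. Its level was -1.82 in control and -1.96 with Trp53 loss alone. In the Pik3ca/Trp53 pair it was dim before (-5.74) and 1.55 after inoculation, and in the Apc/Trp53 pair it was dim before (-6.56) and after (-6.39). It was thus above background in 3 cultures, and dim in both double mutants before inoculation. It was at least 3.19-fold lower in Pik3ca/Trp53 and at least 5.07-fold lower in Apc/Trp53 than in Trp53 loss, and at least 36.3-fold higher in tumour-derived Pik3ca/Trp53 than in its source. With the dim signal as measured, that last difference was 7.29 log2 units in place of 5.18, and under normexp it was 3.48. Under normexp the differences of Pik3ca/Trp53 and Apc/Trp53 from Trp53 loss were -0.84, no longer 2-fold, and -1.12.

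Mmp3 encodes stromelysin-1, which cuts proteoglycans, laminin and fibronectin and activates other MMPs. It was dim in 5 cultures and -0.69 in tumour-derived Pik3ca/Trp53, at least 7.69-fold above its source and 1.601 log2 units above it under normexp. The gelatinase Mmp2, which cuts denatured and basement membrane collagen, had the same pattern of detection. It was -2.41 in tumour-derived Pik3ca/Trp53 and dim elsewhere, and at least 2.34-fold above its source. Mmp2 is commonly made by fibroblasts, whose other markers are given further down.

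Matrilysin, Mmp7, was above background in every culture. It was 6.44 in control and 7.20 with Trp53 loss alone, 5.42 before and 4.42 after inoculation in the Pik3ca/Trp53 pair, and 6.17 before and 6.61 after it in the Apc/Trp53 pair. The Pik3ca/Trp53 lineage thus held both lowest levels. Mmp7 was 3.42-fold lower in Pik3ca/Trp53 and 2.04-fold lower in Apc/Trp53 than in Trp53 loss. Its 2 probes gave differences with an SD of at most 0.07 log2 units in each of the 5 comparisons. The difference of Apc/Trp53 from Trp53 loss was -0.94 under median scaling, -0.97 under quantile normalization and -0.995 with the brightest probe, each under 2-fold. The log2 difference in the Pik3ca/Trp53 pair, -0.998, fell just short of the 2-fold limit.

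The neutrophil collagenase Mmp8 was -2.36 in control and dim in the other 5 cultures, so that Trp53 loss was at least 3.07-fold below control. Mmp19, which cuts basement membrane proteins, was -3.69 in control and -2.24 with Trp53 loss alone, -3.30 before and -2.73 after inoculation in the Pik3ca/Trp53 pair, and -2.99 before and dim at -4.55 after it in the Apc/Trp53 pair. Its highest level was in Trp53 loss, 2.72-fold above control and 2.07-fold above Pik3ca/Trp53. In the Apc/Trp53 pair it was at least 2.22-fold lower in the tumour-derived culture.

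Mmp11, stromelysin-3, lay between -0.46 and 0.62 and was lowest in Trp53 loss and highest in Apc/Trp53, 2.11-fold apart. Stromelysin-2, Mmp10, was above background in control (-3.28) alone. Its bounds stayed under 2-fold, and as measured Trp53 loss differed from control by -1.31 log2 units. Mmp28 (epilysin) spanned -1.49 to -1.06 over the 6 cultures, which is less than 2-fold.

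Among the membrane-anchored MMPs, Mmp23 differed most between cultures. It was -1.01 in control and 1.99 with Trp53 loss alone, 0.93 before and dim at -4.04 after inoculation in the Pik3ca/Trp53 pair, and -2.00 before and -1.31 after it in the Apc/Trp53 pair. Trp53 loss was 8-fold above control, and Apc/Trp53 was 15.8-fold below Trp53 loss. Pik3ca/Trp53 was 2.08-fold below Trp53 loss, and its tumour-derived culture at least 29.8-fold below it. Under normexp that last difference was -2.87 log2 units in place of -4.90, and that of Apc/Trp53 from Trp53 loss -3.01 in place of -3.98. The culture where Mmp23 was dim held the highest level of Mmp13.

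The transmembrane collagenase Mmp15 was 1.39 in control and -0.39 with Trp53 loss alone, 0.40 before and 1.02 after inoculation in the Pik3ca/Trp53 pair, and -0.41 before and 1.47 after it in the Apc/Trp53 pair. Levels in the control and both tumour-derived cultures exceeded those in the 3 Trp53-loss cultures before inoculation. These are also the 3 arrays of slide row 2. Mmp15 in Trp53 loss was 3.44-fold below control, and it was 3.69-fold higher in tumour-derived Apc/Trp53 than in its source, and 1.54-fold higher in the Pik3ca/Trp53 pair. Mmp14, the main membrane activator of pro-Mmp2, spanned 0.66 to 1.65 and was below 2-fold in every comparison. Mmp17 spanned -3.12 to -2.23, also below 2-fold. Mmp25, a membrane enzyme known from leukocytes, was -2.78 in tumour-derived Apc/Trp53, at least 2.88-fold above its source, and dim elsewhere. The leukocyte marker Ptprc (CD45) was likewise above background in tumour-derived Apc/Trp53 alone, at -2.54. Of 6 leukocyte markers tested in that pair, 1 was higher (9.1% of all genes) and 1 lower (6.42%). Ptprc differed by at least 1.76 log2 units and Cd68 by -2.20, and the median was 0.08. The part of leukocytes in the Mmp25 value was not tested.

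Among the proteoglycan-cutting ADAMTS genes, Adamts1, which cuts aggrecan and versican, was apart in all 5 comparisons, some of which share an array. Its level was -0.64 in control and 1.01 with Trp53 loss alone, -1.28 before and 1.08 after inoculation in the Pik3ca/Trp53 pair, and -1.04 before and -2.73 after it in the Apc/Trp53 pair. It was 3.15-fold higher in Trp53 loss than in control, then 4.91-fold lower in Pik3ca/Trp53 and 4.16-fold lower in Apc/Trp53 than in Trp53 loss. From source to tumour-derived culture it was 5.14-fold higher in the Pik3ca/Trp53 pair and 3.23-fold lower in the Apc/Trp53 pair. These values rest on 1 probe, as do those of Mmp2, Mmp3, Mmp8, Mmp13, Mmp15, Mmp23, Mmp25, Adamts8, Adamts15 and Timp1, among others. Mmp19 and Adam12 each have another probe, which was dim on all 6 arrays and was not used. Under normexp the log2 difference of Adamts1 in the Apc/Trp53 pair was -0.97 and no longer 2-fold. That between Pik3ca/Trp53 and Trp53 loss was -1.67 in place of -2.30.

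Adamts15 was -2.15 in control and -1.27 with Trp53 loss alone, 0.15 before and 1.98 after inoculation in the Pik3ca/Trp53 pair, and -1.11 before and 0.71 after it in the Apc/Trp53 pair. It was 3.56-fold higher in tumour-derived Pik3ca/Trp53 and 3.52-fold higher in tumour-derived Apc/Trp53 than in their sources, and 2.68-fold higher in Pik3ca/Trp53 than in Trp53 loss. Control held its lowest level. Its neighbour on chromosome 9, Adamts8, was dim in control (-6.18) and -1.22 with Trp53 loss alone, -1.76 before and -0.71 after inoculation in the Pik3ca/Trp53 pair, and 0.06 before and -0.06 after it in the Apc/Trp53 pair. All 5 cultures with Trp53 loss thus had a signal above background and control did not. In Trp53 loss Adamts8 was at least 6.36-fold above control, and it was 2.44-fold higher in Apc/Trp53 than in Trp53 loss and 2.07-fold higher in tumour-derived Pik3ca/Trp53 than in its source. Under normexp these log2 differences were 1.45, 0.94 and 0.67, in the same order. The first is 1.45 in place of a bound of 2.67.

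The aggrecanase Adamts4 was -0.26 in control and between 0.14 and 1.45 in the other 5 cultures, highest in Trp53 loss. It was 3.27-fold higher in Trp53 loss than in control, with an SD of 0.25 log2 units over 3 probes. Within the Pik3ca/Trp53 pair its 3 probes disagreed, from -1.83 to 0.27. Adamts7, which cuts the cartilage protein COMP, was -1.38 in control and -2.41 in Trp53 loss, 2.04-fold lower, and between -2.16 and -1.32 in the other 4. Adamts9, a broadly expressed versican-cutting enzyme, spanned 1.61 to 2.45 and was below 2-fold in every comparison.

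Adamts10 and Adamts17 encode enzymes linked to fibrillin microfibrils. Adamts10 was -2.40 in tumour-derived Pik3ca/Trp53, where both of its probes were above background, and at least 2.35-fold above its source on average. The probes measured -1.51 and -3.29 there, their differences from the source had an SD of 1.4 log2 units, and under normexp the mean difference was 0.54 log2 units, no longer 2-fold. In tumour-derived Apc/Trp53 1 of its 2 probes was above background. Adamts17 has 3 probes, which differed by an SD of 2.06 log2 units in the Apc/Trp53 pair. Their mean was at least 3.73-fold higher in the tumour-derived culture, and 0.80 log2 units higher under normexp, no longer 2-fold. The probe that contributed most measured -0.10 there and was dim in the other 5 cultures. Adamts14, a procollagen N-propeptidase, and Adamts16 were above background in at most 2 cultures. Their bounds stayed under 2-fold, which does not limit the change below background. As measured, Adamts14 was 5.97-fold higher in tumour-derived Pik3ca/Trp53 and 8.80-fold lower in tumour-derived Apc/Trp53 than in their sources, and Adamts16 was 3.37-fold higher in the latter.

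Of the ADAM genes, Adam8, a sheddase known from myeloid cells, was 0.77 in control and -1.79 with Trp53 loss alone, -2.56 before and -1.37 after inoculation in the Pik3ca/Trp53 pair, and -3.22 before and -3.45 after it in the Apc/Trp53 pair. Control was above the other 5. In Trp53 loss Adam8 was at least 4.43-fold below control, a bound that rests on its second probe, which was dim outside control. Adam12, a metalloprotease expressed in mesenchymal cells, was -2.37 in control, dim in the next 4 cultures and -3.82 in tumour-derived Apc/Trp53. Trp53 loss was at least 3.06-fold below control. Of the 8 leukocyte markers listed, 5 were above background in both control and Trp53 loss, and Ptprc was dim in both. Of those 5, 0 were at least 2-fold higher in Trp53 loss (4.24% of all genes) and 1 lower (5.57%), Cd14 (-1.37). The median difference was -0.33. Csf1r (-0.58 in control, -0.27 in Trp53 loss) and Cd3e (-2.35 and -2.22) went the other way. The part of leukocytes in the Mmp8 and Adam8 values was not tested.

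Among the inhibitors, Timp3, which binds to the matrix and blocks MMPs as well as ADAM and ADAMTS proteases, had the widest differences. It was -0.25 in control and 1.33 with Trp53 loss alone, -2.56 before and 2.28 after inoculation in the Pik3ca/Trp53 pair, and 0.71 before and -0.78 after it in the Apc/Trp53 pair. The lowest and the highest level were thus in the 2 cultures of the Pik3ca/Trp53 pair. Timp3 was 2.98-fold higher in Trp53 loss than in control, 14.8-fold lower in Pik3ca/Trp53 than in Trp53 loss, and 28.7-fold higher in tumour-derived Pik3ca/Trp53 than in its source, with an SD of 0.86 log2 units between its 2 probes in that pair. In the Apc/Trp53 pair it was 2.81-fold lower in the tumour-derived culture. Under normexp the difference in the Pik3ca/Trp53 pair was 3.51 log2 units in place of 4.84, and that from Trp53 loss -2.63 in place of -3.89.

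Timp1, a soluble inhibitor that tissue damage and cytokines are known to induce, lay between 2.07 and 2.46 in 5 cultures. It was 4.24 in tumour-derived Pik3ca/Trp53, 3.42-fold above its source. Timp2, which also takes part in pro-Mmp2 activation, spanned 3.03 to 3.78 and was below 2-fold in every comparison. Its 2 probes differed in the Pik3ca/Trp53 pair, from -0.10 to 0.92. In that pair Mmp13, Mmp3 and Mmp2 were therefore higher together with Timp3 and Timp1.

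**Figure D3:**
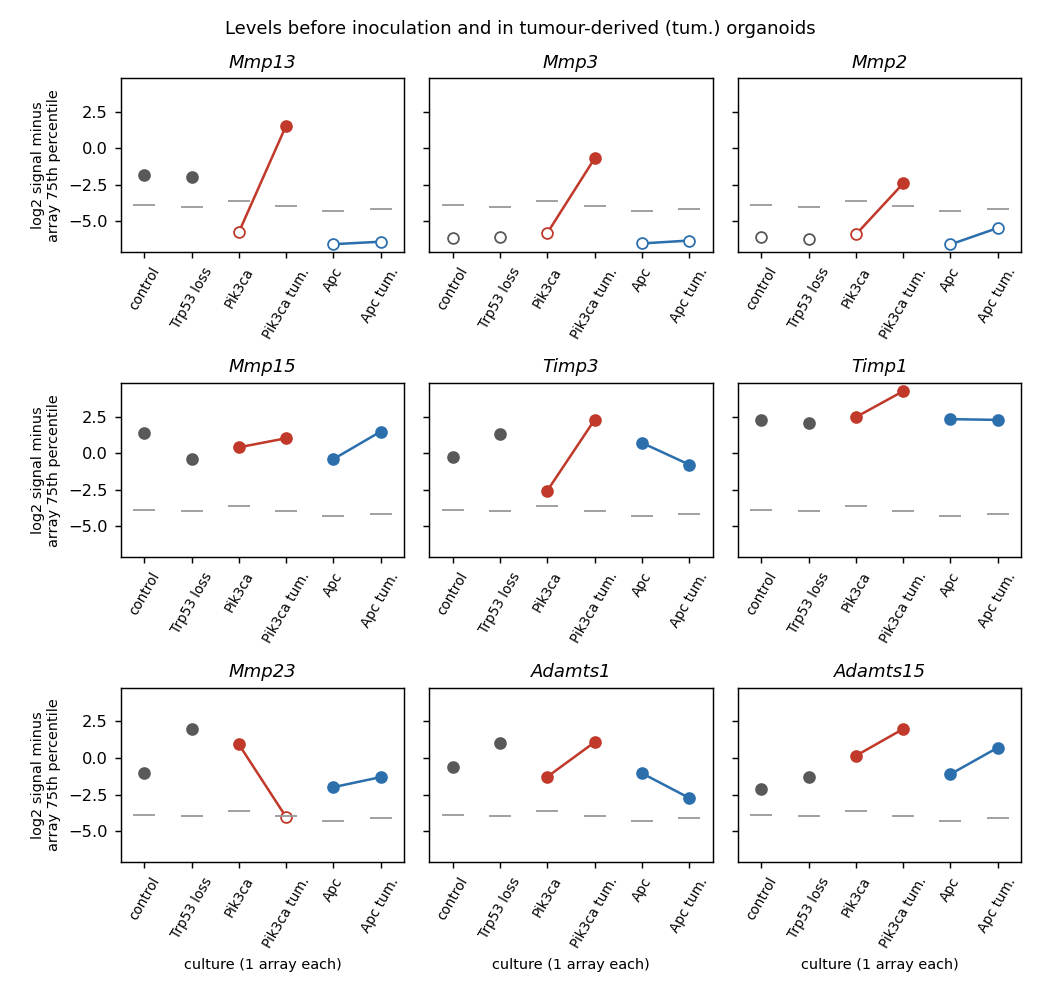
Levels of 9 members on each of the 6 arrays, as log2 signal minus the array 75th percentile (vertical axis, the same in all panels), with lines joining each tumour-derived culture to its source (red, Pik3ca/Trp53; blue, Apc/Trp53; grey, control and Trp53 loss). Open circles are dim signals and grey dashes the lowest signal well above background on that array. Timp3 and Adamts1 run in opposite directions in the pairs, while Adamts15 is higher in both.

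2 models across all genes used several arrays at once. Changes shared by both tumour-derived cultures were fitted with limma over 4 arrays with genotype as a block, which leaves 1 residual degree of freedom. Members above background on fewer than 2 of these arrays, among them Mmp13, Mmp3, Mmp2 and Mmp25, were not fitted. On simulated arrays this fit recovered 13.35% of genes changed by 1 log2 unit, so a lack of calls does not show that such changes were absent. No fitted member and 0 of 14227 genes (0%) had an adjusted p (Benjamini-Hochberg) under 0.05, and 550 genes had an unadjusted p under 0.05. Of 21 members fitted, 2 did, Adamts15 (log2 difference 1.82, SE 0.28, limma adjusted p = 0.993) and Adamts17 (1.77, SE 0.48, limma adjusted p = 0.993), both higher in 2 of 2 pairs on signals as measured. Adamts17 was dim in both source cultures. In the Pik3ca/Trp53 pair its bounded difference was 0.45, under 2-fold, with an SD of 2.47 between its 3 probes. The second fit set the single control against 3 cultures with Trp53 loss, all before inoculation, assuming that control varies as they do. Here 0 of 15022 genes (0%) passed and 1249 had an unadjusted p under 0.05.

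In that second fit 6 of 24 members had an unadjusted p under 0.05. They were Adamts8, which was higher, and Adam8, Mmp15, Adam12, Mmp14 and Adamts7, which were lower in the 3 cultures. Adamts8 had the smallest limma adjusted p of the members (0.246), with a log2 difference of 5.21 and an SE of 0.81 on signals as measured, higher in 3 of 3 cultures. Mmp23 differed by 1.32 with an SE of 1.74 (limma adjusted p = 0.853), and Timp3 by 0.07 with an SE of 1.77 (limma adjusted p = 0.993). For these 2, the spread among the Trp53-loss cultures exceeded their mean distance from control.

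The activators and inhibitors that act around these enzymes were counted from a list of 23 genes, with differences on the log2 scale and dim signals bounded as above. The shares of all genes to set beside the counts of this list and the following ones are, higher and lower, 4.24% and 5.57% in Trp53 loss against control, 7.75% and 5.92% in Pik3ca/Trp53 and 3.4% and 4.32% in Apc/Trp53 against Trp53 loss, 11% and 9.1% in the Pik3ca/Trp53 pair, and 9.1% and 6.42% in the Apc/Trp53 pair. In Trp53 loss 0 of 17 tested were higher than in control and 5 lower, among them the protease inhibitor Serpine2 (log2 difference -5.27) and the membrane-bound MMP inhibitor Reck (-1.50). In Pik3ca/Trp53 against Trp53 loss 3 of 17 were higher and 2 lower, with Serpine2 at 2.48. In Apc/Trp53 1 of 18 was higher, Serpine2 at 3.58, and 3 were lower. The Pik3ca/Trp53 pair had 5 of 17 higher, among them Serpine2 (4.58), Reck (3.64) and the urokinase receptor Plaur (1.58), and Plat (-1.98) was lower. In the Apc/Trp53 pair 3 of 16 were higher and 4 lower, with Plaur at -2.33.

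Of 14 other ADAM and ADAMTS-like genes, the Pik3ca/Trp53 pair had 5 of 11 higher (11% of all genes) and 0 lower (9.1%). Papln, which encodes papilin (3.75), Adam33 (2.85) and Adamtsl4 (2.34) led them. In the Apc/Trp53 pair 2 of 11 were higher and 2 lower. The counts were 1 higher and 1 lower of 9 in Trp53 loss against control, 1 and 4 of 10 in Pik3ca/Trp53 and 0 and 3 of 10 in Apc/Trp53 against Trp53 loss.

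Matrix proteins known as substrates were counted from a list of 33. In Trp53 loss against control 1 of 21 was higher and 5 lower, with the basement membrane collagens Col4a1 (-2.34) and Col4a2 (-2.19) and fibronectin, Fn1 (-2.22), lower. The Pik3ca/Trp53 pair had 10 of 24 higher (11% of all genes) and 2 lower (9.1%), led by nidogen, Nid1 (3.37), aggrecan, Acan (3.13), and the anchoring fibril collagen Col7a1 (3.03). The Apc/Trp53 pair had 5 of 20 higher and 3 lower, led by Col4a1 (4.10), Col4a2 (3.59) and the laminin chain Lama1 (3.41). Against Trp53 loss, Pik3ca/Trp53 had 4 of 19 higher and 4 lower and Apc/Trp53 2 of 20 higher and 2 lower, and Acan was lower in both (-3.52 and -2.90).

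Transcription factors of the AP-1 and ETS families are known to act on MMP promoters, and 13 were listed. In Pik3ca/Trp53 0 of 11 were higher and 4 lower than in Trp53 loss, the ETS factors Etv1 (-4.66), Etv4 (-2.11) and Etv5 (-1.24) and the AP-1 factor Fosl1 (-2.29). In the Pik3ca/Trp53 pair 7 of 12 were higher (11% of all genes) and 0 lower (9.1%), Etv1 (5.26), Etv5 (2.51), Etv4 (1.93), Fosl1 (1.83), Junb (1.53) and Fosb (1.38) leading. In the Apc/Trp53 pair 1 of 13 was higher and 5 lower, with Fosl1 at -2.61. Trp53 loss had 0 of 13 higher and 1 lower than control, and Apc/Trp53 0 of 12 higher and 2 lower than Trp53 loss.

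The lists of regulators, ADAM-like genes, substrates and AP-1 and ETS factors had medians of 0.91, 0.82, 0.90 and 1.35 in the Pik3ca/Trp53 pair, against -0.47, 0.00, 0.20 and -0.77 in the Apc/Trp53 pair. Genes dim in the source enter these medians. In the Pik3ca/Trp53 pair 16 substrates were above background before and 24 after inoculation. For the other lists, in the same order, these counts were 15 and 16, 10 and 11, and 10 and 12. The lists were chosen with earlier results of these data known.

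**Figure D4:**
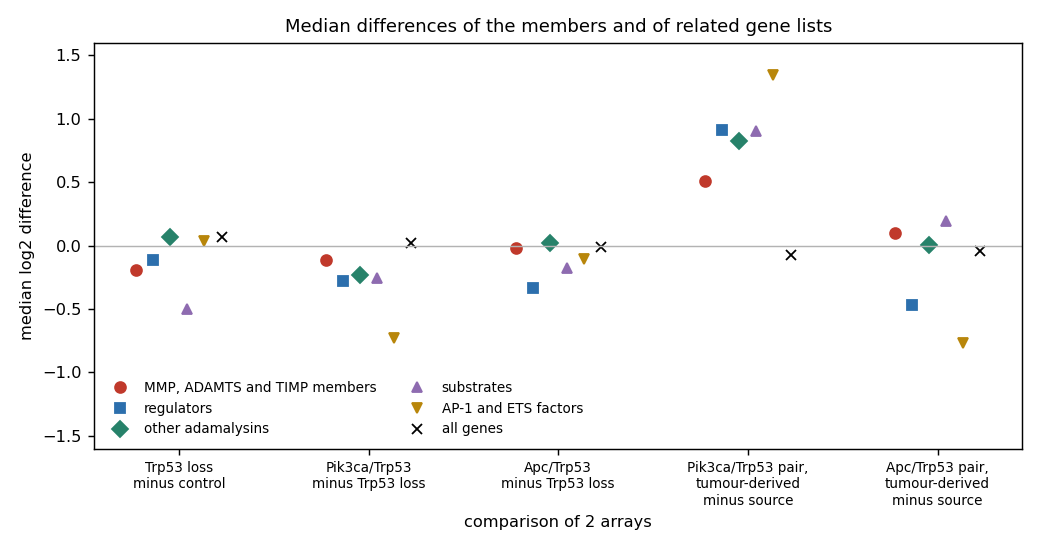
Median log2 difference of the members, of 4 lists of related genes and of all genes (symbols) in each of the 5 comparisons, with dim signals at the background limit. In the Pik3ca/Trp53 pair the medians of the members (0.51) and of all 4 lists (0.82 to 1.35) lie above that of all genes (-0.08). Genes above background only in the tumour-derived culture are included, and the members and lists were chosen with earlier results of these data known.

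Some markers of cells other than epithelium were higher in tumour-derived Pik3ca/Trp53 and others were not. Of 10 fibroblast markers, 4 were above background there, Postn (2.84), Pdgfra (-2.13), Col1a2 (-2.64) and Col1a1 (-3.35), while Col3a1, Pdgfrb, Dcn, Lum, Thy1 and Fap were dim. In the other cultures 0 to 2 of the 10 were above background. Postn, which encodes periostin, differed by at least 6.48 log2 units from the source culture, and Pdgfra by at least 1.16 on average, with an SD of 3.97 between its 2 probes. Summed over all 10, the signal was 7.70 times the array 75th percentile in tumour-derived Pik3ca/Trp53 and 0.161 to 0.291 times elsewhere. Without Postn, which carried most of it, the sum there was 0.518.

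Smooth muscle markers above background numbered 2 of 5 in tumour-derived Pik3ca/Trp53, as in 4 of the other cultures. Acta2 differed by 1.79 in the pair, with an SD of 2.24 between its 2 probes. Of 8 leukocyte markers, 5 were above background in each culture except tumour-derived Apc/Trp53, which had 6. In the Pik3ca/Trp53 pair 2 of 5 leukocyte markers were higher, Cd14 (1.51) and Itgam (1.01), with a median of 0.91, while Ptprc was dim in both cultures. Of the endothelial markers 0 of 2 tested were higher there, with a median of -0.31, and Kdr was dim in both. Of 5 oviduct secretory markers 0 were higher and 2 lower in that pair (11% and 9.1% of all genes), Msx1 (-7.99) and Wt1 (-6.23 or further). In Trp53 loss against control 1 of these 5 was higher (4.24%), Wt1 (4.38 or more), and 2 were lower (5.57%). Of 4 multiciliated markers tested there 0 were higher and 3 lower, with Dynlrb2 at -3.40. The part of such cells in the member values was not tested.

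Fewer cells of a type and less RNA per cell cannot be told apart in these bulk samples. The part of fibroblasts or other host cells in the Mmp13, Mmp3, Mmp2, Timp1 and Timp3 values of tumour-derived Pik3ca/Trp53 was not tested. The Trp53 signal was above background in that culture (-1.04) and also in Apc/Trp53 before inoculation (-2.99), and its origin was not tested in either. In tumour-derived Apc/Trp53, where Pdgfra (-3.80) and Pdgfrb (-3.53) were the fibroblast markers above background, Mmp13, Mmp3 and Mmp2 were dim.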

How the data were processed

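RNA of 6 organoid cultures was labelled with Cy3 (0.2 ug per sample, per the labels) and read on 6 one-colour arrays, 1 for each group. The deposited scanner files hold spot intensity from Agilent Feature Extraction 11.0.1.1 (submitters' processing notes), background-subtracted per the file headers and not scaled between arrays, and flags for signals well above background. The array files name build mm9, and no coordinates were taken from them. A deposited table of log2 values covers 2047 probes, 6 of them of 5 members. Its differences between arrays equal those of the log2 intensity (r = 1), and its scaling, centring and choice of probes are not stated; its column medians were 0.03 (control), -0.02 (Trp53 loss), 0.15 (Pik3ca/Trp53), -0.05 (tumour-derived), -0.32 (Apc/Trp53) and -0.20 (tumour-derived).

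Control spots and outlier spots were left out, copies of a probe averaged, and log2 intensity taken minus each array's 75th percentile. Accessions were matched to RefSeq symbols, naming 34521 of 56537 features. No spot was saturated. Differences and bounds are as given with the results, and a gene called apart differs by at least 2-fold after bounding. The fits used limma 3.58.1 in R 4.3.3 on signals as measured, requiring a signal above background on 2 or more of 4 arrays (tumour-derived) or 1 of 4 (control). The tumour-derived fit was tested on 10 simulated draws per size of change. It recovered 13.35% of genes changed by 1 log2 unit, 98.05% at 2 and 99.9% at 4. The mean false share among its calls was 13.3%, 7.92% and 6.72%, above what an adjusted p of 0.05 aims at. The simulated spread was set and not taken from these cultures, and both pairs were changed alike. In the fit of these data the SE was 0.28 for Adamts15 and 1.91 for Timp3. The shares recovered therefore do not show that shared changes of 2 or 4 log2 units would have been called here. The rest was done in Python 3.11.15 (pandas 2.3.3, numpy 2.4.6; figures with matplotlib 3.10.9). Alternatives were signals without bounds, median scaling, quantile normalization, normexp background correction (offset 50), genes above background on both arrays, the brightest probe per gene, and probes above background on 1 of the 2 arrays. Normexp used the median spot signal, in place of the mean signal planned. For the fits they were the 3 scalings, no filter, genes above background on all 4 arrays, no genotype block, and each Trp53-loss culture left out. The number of arrays limits the precision.

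The members and lists were chosen with earlier results of these data known. Members are named where at least 2-fold apart in a comparison, where they mark the set (Mmp13, Mmp3, Mmp23, Timp3, Adamts1), where dim throughout, or where their probes disagree by over 1 log2 unit. Adamts9, Adamts14, Adamts16, Mmp10, Mmp14, Mmp17, Mmp28 and Timp2 fall outside that rule, apart from the probes of Timp2, and were named after their values were seen, as were Trp53 and the levels of single markers. Of the lists, at most the 6 genes of largest difference per comparison are named. Motif matches were counted in RefSeq windows of GRCm38.p6.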

Additional observations from a re-analysis of the deposited data

Results flagged for a closer look

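Adamts1 and Timp3 differed between the tumour-derived contrasts, where the culture of one pair was higher and that of the other lower than its source. For Adamts1 the difference was 2.36 in the Pik3ca/Trp53 pair and -1.69 in the Apc/Trp53 pair (-0.97 under normexp, no longer 2-fold), which are 4.05 log2 units apart. For Timp3 it was 4.84 and -1.49, which are 6.33 log2 units apart. Each pair is 1 array before and 1 after inoculation, and the difference between the pairs was not tested.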

How the results depend on the processing

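Of 41 member differences of at least 2-fold, recomputed 274 times under the alternatives, 248 values stayed past 2-fold, 26 fell short and 0 reversed. Of the 26, 16 fell short under normexp. The other 10 values fell short under median scaling, quantile normalization or, for Mmp7, also with the brightest probe. They belonged to Adamts7 in Trp53 loss against control and Adamts8 in the Pik3ca/Trp53 pair. Against Trp53 loss they belonged to Mmp19 and Mmp23 in Pik3ca/Trp53 and Mmp7 in Apc/Trp53. 24 of the 41 differences stayed past 2-fold under every alternative that gave a value. With normexp the count of members apart was 7 in place of 11 for Trp53 loss against control, 4 in place of 7 for Pik3ca/Trp53 against Trp53 loss, and 3 in place of 7 in the Apc/Trp53 pair. With genes above background on both arrays it was 5 in place of 10 in the Pik3ca/Trp53 pair and 4 in place of 7 in the Apc/Trp53 pair, since members dim on 1 array leave the count. Over all genes that filter gave 1072 higher and 1031 lower of 12983 in the Pik3ca/Trp53 pair. In the Apc/Trp53 pair it gave 940 higher and 808 lower of 13607. The cause of the normexp changes was not tested. Median scaling turned the balance of all genes to 1439 higher and 1686 lower from 1617 and 1339 in the Pik3ca/Trp53 pair, and to 586 and 525 from 491 and 624 in Apc/Trp53 against Trp53 loss. Counts over all genes fell by more than 1.5 times under normexp in all 5 comparisons. They fell to 269 higher and 341 lower from 609 and 800 in Trp53 loss against control, to 601 and 433 from 1103 and 843 in Pik3ca/Trp53 and to 233 and 248 from 491 and 624 in Apc/Trp53 against Trp53 loss, and to 1076 and 720 from 1617 and 1339 in the Pik3ca/Trp53 pair and 631 and 541 from 1353 and 955 in the Apc/Trp53 pair.

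Both limma fits called 0 members under all alternatives, also on leaving out each Trp53-loss culture in turn, where 3 to 6 members had an unadjusted p under 0.05. Quantile normalization gave 72 genes called in the fit against control in place of 0, with no member among them. Leaving the genotype block out of the tumour-derived fit also gave 0 members. A lone array per group gives no error for a culture, and signals near background, as for Mmp19, Mmp2 and Adamts17, are the least precise.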
